A study of Homo sapiens with 24 samples.

Results

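The receptors through which steroid hormones act, and the luminal factors that open chromatin for them, were followed at the RNA level in 2 breast cancer lines that lack oestrogen receptor (ER) protein. The 9 genes were taken by name from the 59609 gene symbols of the count table: the oestrogen receptors ESR1 and ESR2, the membrane oestrogen receptor GPER1, the progesterone receptor PGR, the glucocorticoid receptor NR3C1, the mineralocorticoid receptor NR3C2, the oestrogen-related orphan receptor ESRRA, and the transcription factors FOXA1 and GATA3. They were taken as named genes, with no threshold on a measured value. The study used MDA-MB-231 and MDA-MB-453 as an ER-negative contrast to its hormone receptor-positive lines, and asked what CDK4/6 inhibition does to oestrogen-responsive transcription. Cells of wild-type genotype received DMSO, the CDK4/6 inhibitor abemaciclib at 500 nM, the selective ER degrader fulvestrant at 5 nM, or the combination of both drugs at those doses, for 5 days. Each of the 8 groups held 3 biological replicates of an experiment performed once, giving 24 libraries of 3′ RNA-seq (QuantSeq, which reads the end of each polyadenylated transcript). MDA-MB-231 grew in RPMI-1640 and MDA-MB-453 in DMEM, so the line and its medium cannot be told apart. P-values therefore measure the spread between replicates of that experiment. No line with ER protein was among these libraries.

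Steroid receptors are ligand-activated transcription factors. Without hormone, NR3C1 and its relatives are held by HSP90 and its co-chaperones, and hormone binding sends them to DNA as dimers that recruit coactivators. FOXA1 and GATA3 are pioneer factors of luminal breast cells that open the enhancers ER binds, and their genes are usually active together with ESR1. ESRRA has no known steroid hormone as its ligand and works with PGC-1 coactivators on genes of mitochondrial respiration. GPER1 is a G protein-coupled receptor unrelated in structure to the others, at which fulvestrant is known as an agonist.

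Library totals ranged from 2873558 to 4158762 counts. The identity of the lines was checked with marker lists. In DMSO, 10 mesenchymal markers summed to 2510 to 2880 CPM (counts scaled by library size) in MDA-MB-231 and to 0.553 to 4.08 CPM in MDA-MB-453, where 6 of the 10 had 0 counts in every library and VIM and AXL had none in DMSO. The 11 luminal epithelial markers summed to 500 to 523 CPM in MDA-MB-231 and to 4230 to 4380 CPM in MDA-MB-453. Mitochondrial transcripts took more of the counts after abemaciclib, where MDA-MB-231 went from 8.83% ± 0.213 (SD, n = 3) to 12.2% ± 1.05, and MDA-MB-453 went from 15.2% ± 0.65 to 23.8% ± 1.91. Its part in the results was not tested, and values with mitochondrial counts left out are given where they change a call.

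Promoter sequence is shown for ESRRA and GPER1, whose RNA rose with abemaciclib, and for FOXA1, which separated the lines. Each run is the 250 bases before a RefSeq transcript start (GRCh38.p14), read 5′ to 3′ on the gene's strand. Capitals mark the GC box GGGCGG, the forkhead motif (TGTTTAC or TGTTTGC) and the nuclear receptor motif AGGTCA on either strand. The ESRRA run lies at chr11:64305274-64305523 on the plus strand, the first GPER1 start at chr7:1086868-1087117 and the second at chr7:1087863-1088112 on the plus strand, and FOXA1 at chr14:37595250-37595499 on the minus strand.
ESRRA: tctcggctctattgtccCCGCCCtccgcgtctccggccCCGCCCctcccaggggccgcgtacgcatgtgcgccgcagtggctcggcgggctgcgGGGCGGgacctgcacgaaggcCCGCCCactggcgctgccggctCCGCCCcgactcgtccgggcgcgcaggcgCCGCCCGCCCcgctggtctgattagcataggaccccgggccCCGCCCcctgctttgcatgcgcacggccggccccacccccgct
GPER1 first start: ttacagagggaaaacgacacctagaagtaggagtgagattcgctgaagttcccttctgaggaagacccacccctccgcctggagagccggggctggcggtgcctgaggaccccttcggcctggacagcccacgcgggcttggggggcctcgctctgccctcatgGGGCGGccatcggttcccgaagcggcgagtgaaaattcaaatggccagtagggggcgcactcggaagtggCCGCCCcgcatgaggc
GPER1 second start: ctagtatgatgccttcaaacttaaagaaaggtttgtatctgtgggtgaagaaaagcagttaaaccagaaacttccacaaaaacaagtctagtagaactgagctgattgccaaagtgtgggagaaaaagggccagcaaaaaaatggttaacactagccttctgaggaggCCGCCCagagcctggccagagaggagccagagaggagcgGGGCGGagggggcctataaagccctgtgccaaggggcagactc
FOXA1: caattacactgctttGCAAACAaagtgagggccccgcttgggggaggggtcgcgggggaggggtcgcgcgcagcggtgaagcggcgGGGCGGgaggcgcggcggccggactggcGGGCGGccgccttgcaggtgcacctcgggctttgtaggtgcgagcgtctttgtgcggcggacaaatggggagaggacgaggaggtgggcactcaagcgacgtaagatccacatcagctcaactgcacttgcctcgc
The ESRRA window is 78% G and C and holds 8 GC boxes, and each GPER1 window holds 2. GC boxes are common, with at least 1 in 42.6% of the 35116 promoters of this length. AGGTCA, found in 12.1% of all promoters, is absent from these 4 windows and among the 35 starts of the members appears only at 2 of the 5 ESR2 starts. The forkhead motif, found in 6.09% of all promoters, occurs once before FOXA1 and at 1 of 7 NR3C1 and 1 of 6 GATA3 starts. These matches are descriptions of letters, and no binding was measured here.

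The oestrogen and progesterone receptors were at or near 0 in both lines under every treatment. ESR1, the receptor that fulvestrant targets (chr6:151656691-152129619, plus strand, GRCh38, GENCODE release 44), was counted 0 times in 21 of the 24 libraries. The exceptions were 5 counts in abemaciclib replicate 3 and 3 counts in combination replicate 3 of MDA-MB-231, and 8 counts in abemaciclib replicate 2 of MDA-MB-453. The other abemaciclib and combination libraries had 0, so the groups overlapped with DMSO. In DMSO the 3 pooled libraries of MDA-MB-231 allow ESR1 at up to 0.29 CPM and those of MDA-MB-453 at up to 0.288 CPM, taking 3 counts as the most that a count of 0 allows (counting error only).

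ESR2, the second oestrogen receptor, had 1 count in fulvestrant and 3 counts in combination libraries of MDA-MB-231 and none in MDA-MB-453. PGR, a classic ER target, had 3 counts in a single MDA-MB-453 DMSO library and 0 in the other 23. All 3 genes fell below the filter on low counts in both lines and were not tested, and a change in them was not detectable at this depth. Exons of PGR and PGR-AS1 overlap on opposite strands, and PGR-AS1 also had 0 counts throughout.

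Of the receptors that passed the filter, GPER1 had the largest relative rise, in MDA-MB-231 under abemaciclib (gene at chr7:1082208-1093815, plus strand). Its levels in DMSO were 3.54, 1.43 and 2.33 CPM, from 12, 5 and 8 counts. With abemaciclib they were 11.1, 10.7 and 5.33 CPM, from 40, 36 and 20 counts. All abemaciclib libraries lay above all DMSO libraries. The change was 1.87 ± 0.52 (log2 fold change ± SE, a 3.66-fold rise; adjusted p = 0.00455, edgeR quasi-likelihood test with Benjamini-Hochberg adjustment over all 11314 genes tested). Here 33.7% of genes tested were called at an adjusted p below 0.05, and 16.9% were called as higher.

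In the combination GPER1 measured 13.5, 4.64 and 6.62 CPM, again all above DMSO, a change of 1.72 ± 0.52 (adjusted p = 0.00852). In this comparison 35.4% of genes were called. The call was lost without combination replicate 1, the highest library (1.18, adjusted p = 0.13), and without DMSO replicate 2 (1.45, adjusted p = 0.0511). With fulvestrant alone GPER1 was 1.96, 1.39 and 6.61 CPM. Replicate 3 stood above the others there and above all DMSO libraries, and the difference of 0.43 ± 0.58 was not called (95% interval -0.73 to 1.59, adjusted p = 0.928). The order of the means was abemaciclib, combination, fulvestrant and DMSO, and the ranges of all neighbours in it overlapped. GPER1 passed the filter in MDA-MB-231 only through the abemaciclib and combination groups, where all 3 libraries reached the cutoff of 2.86 CPM, against 1 library in DMSO and 1 with fulvestrant.

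MDA-MB-453 had 0 to 10 GPER1 counts a library and the gene was not tested there. Its summed DMSO counts were 25 (MDA-MB-231) and 5 (MDA-MB-453), which puts the level 5.04 times higher in MDA-MB-231 (95% counting interval 1.9 to 16.9). The fit over all 24 libraries gave -2.27 ± 0.88 for MDA-MB-453 against MDA-MB-231 (adjusted p = 0.02), with no overlap of the libraries. That call was lost without MDA-MB-231 DMSO replicate 1 (-1.91, adjusted p = 0.0865) and without MDA-MB-453 DMSO replicate 3 (-2.03, adjusted p = 0.0668). At that comparison between untreated lines, 69.8% of the 12750 genes tested were called.

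**Figure D1:**
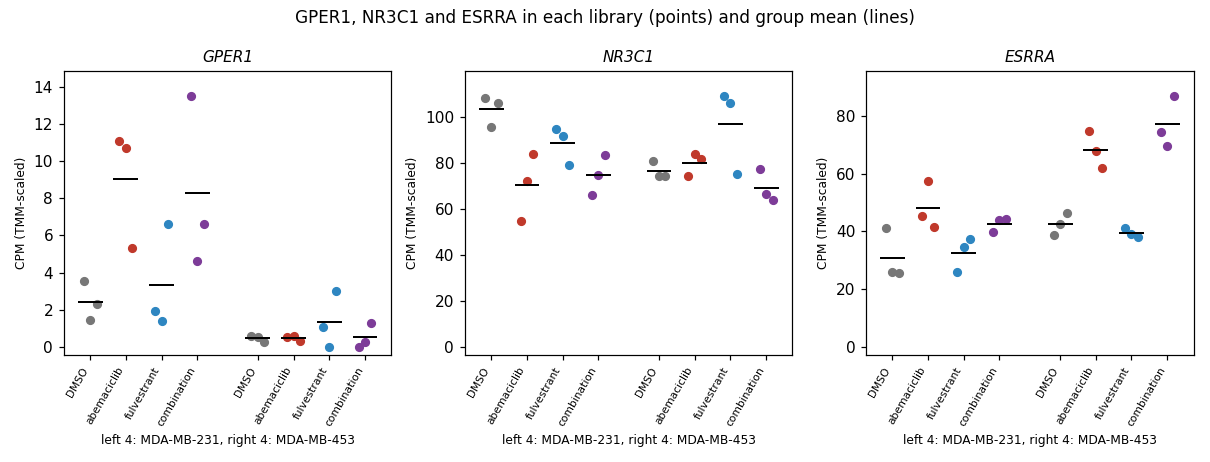
Levels of GPER1, NR3C1 and ESRRA (y axis, CPM after TMM scaling, each panel with its own axis) in the 8 groups (x axis); points are libraries and lines the means of 3. In MDA-MB-231 the abemaciclib points lie above DMSO for GPER1 and ESRRA and below DMSO for NR3C1, while in MDA-MB-453 ESRRA alone of these shows abemaciclib points clear of DMSO.

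NR3C1 fell in MDA-MB-231 with CDK4/6 inhibition. The glucocorticoid receptor gene (chr5:143277931-143435512, minus strand) was at 108, 95.3 and 106 CPM in DMSO. With abemaciclib it was at 54.8, 72.1 and 83.7 CPM, and with the combination at 65.9, 74.5 and 83.3 CPM. No library of either treatment reached the lowest DMSO library. The changes were -0.57 ± 0.14 with abemaciclib (0.676 of the DMSO level, adjusted p = 0.0011) and -0.49 ± 0.14 with the combination (adjusted p = 0.00403). These comparisons share the DMSO libraries. In bulk RNA, fewer cells with the transcript and less of it per cell cannot be told apart. With fulvestrant NR3C1 was at 94.5, 91.7 and 78.8 CPM, also below all DMSO libraries, but the difference of -0.23 ± 0.13 was not called (adjusted p = 0.751).

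In MDA-MB-453 the same receptor did not pass the test under any treatment. DMSO libraries held 80.8, 74.4 and 74.2 CPM and abemaciclib libraries 74.4, 83.8 and 81.5 CPM, with a difference of 0.06 ± 0.13 (95% interval -0.21 to 0.33, adjusted p = 0.77). Fulvestrant libraries held 109, 106 and 75.3 CPM. Replicates 1 and 2 were above every DMSO library and replicate 3 was among them, and the difference of 0.35 ± 0.13 missed the threshold (adjusted p = 0.188). Without fulvestrant replicate 3 it became 0.5 (adjusted p = 0.00823). Combination libraries were at 77.2, 66.2 and 63.6 CPM, a difference of -0.13 ± 0.14.

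Untreated MDA-MB-453 had less NR3C1 than untreated MDA-MB-231 (-0.45 ± 0.14, adjusted p = 0.00403, no overlap). Over all 8 groups the highest mean, 103 CPM in MDA-MB-231 DMSO, and the lowest, 69 CPM in the MDA-MB-453 combination, were linked by neighbours whose ranges overlapped. The abemaciclib effect itself differed between lines by 0.63 ± 0.2 (MDA-MB-453 minus MDA-MB-231, adjusted p = 0.0168). Of all genes tested, 20.7% were called for such a difference, and NR3C1 was the only member among them.

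NR3C2, the aldosterone receptor, was a low-count gene of MDA-MB-231. DMSO libraries had 35, 19 and 7 counts, or 10.3, 5.42 and 2.04 CPM. Group means stayed between 5.69 and 6.05 CPM under all 4 treatments, and no difference exceeded 0.06 on the log2 scale against an SE of 0.49 to 0.5. Changes up to about the bounds of the abemaciclib interval, -0.98 to 1.03, could therefore not be seen. In MDA-MB-453 the gene had 1 count in each DMSO library and at most 11 elsewhere, with 18 summed counts under fulvestrant against 3 in DMSO, and was not tested. From 61 and 3 summed DMSO counts the level was 20.5 times higher in MDA-MB-231 (95% counting interval 6.69 to 102). The fit gave -4.22 ± 0.87 for MDA-MB-453 (adjusted p = 3.64e-05).

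ESRRA (chr11:64305497-64316743, plus strand) rose with abemaciclib in both lines. In MDA-MB-453 it went from 38.9, 42.6 and 46.3 CPM in DMSO to 74.6, 67.8 and 61.9 CPM with abemaciclib and 74.4, 69.7 and 86.9 CPM with the combination. Every treated library was above every DMSO library. The rise was 0.68 ± 0.14 with abemaciclib (1.6-fold, adjusted p = 0.000152) and 0.87 ± 0.14 with the combination (1.83-fold, adjusted p = 2.13e-06). In these comparisons 36% and 37.6% of the 11080 genes tested were called, with 16.6% and 17.6% called as higher. Fulvestrant libraries, at 41.2, 39.2 and 38.1 CPM, overlapped DMSO (-0.11 ± 0.15, adjusted p = 0.827). The combination and abemaciclib ranges overlapped and differed by 0.2 ± 0.14 (95% interval -0.08 to 0.47, adjusted p = 0.536).

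In MDA-MB-231, ESRRA was at 41.1, 26 and 25.6 CPM in DMSO and 45.3, 57.5 and 41.6 CPM with abemaciclib. DMSO replicate 1 stood above its fellows and just under the lowest treated library. The rise was 0.63 ± 0.19 (1.54-fold, adjusted p = 0.00701). Removing abemaciclib replicate 2 (0.48, adjusted p = 0.0723), DMSO replicate 2 (0.51, adjusted p = 0.0565) or DMSO replicate 3 (0.52, adjusted p = 0.0534) ended the call. Combination libraries were at 39.7, 44.1 and 44.3 CPM and overlapped DMSO. Their difference, 0.45 ± 0.19, missed the threshold (adjusted p = 0.0533), and it passed in 7 of 19 alternative analyses, among them that without mitochondrial counts (0.48, adjusted p = 0.0414). The abemaciclib effect on ESRRA differed between lines by 0.06 ± 0.24 (95% interval -0.42 to 0.54).

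The last 284 bases of ESRRA (chr11:64316460-64316743, GRCh38, 9.16% of its exonic bases in GENCODE release 44) overlap the end of TRMT112 on the opposite strand. Such ends are what 3′ libraries read, and the strand setting of the counting was not stated, so reads there cannot be assigned with certainty. TRMT112, a methyltransferase activator, moved the other way from ESRRA, with an abemaciclib change of -0.3 ± 0.09 (adjusted p = 0.00808) for MDA-MB-231 and of -0.7 ± 0.09 (adjusted p = 1.1e-08) for MDA-MB-453. Its part in the ESRRA counts was not tested.

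**Figure D2:**
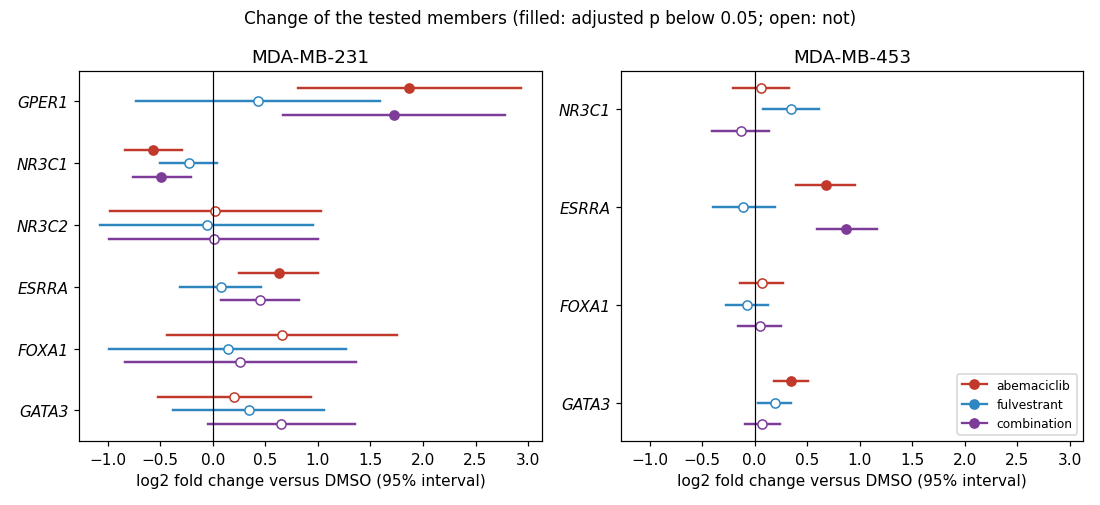
Log2 fold change against DMSO (x axis) of the members that passed the filter in each line, with 95% intervals of the edgeR fit as lines; filled points have an adjusted p below 0.05. The filled points are GPER1 and NR3C1 (abemaciclib and combination) and ESRRA (abemaciclib) in MDA-MB-231, and ESRRA (abemaciclib and combination) and GATA3 (abemaciclib) in MDA-MB-453.

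The pioneer factors marked MDA-MB-453 far more strongly than any receptor. FOXA1 lies at chr14:37589552-37596059 on the minus strand and GATA3 at chr10:8045378-8075198 on the plus strand. FOXA1 in DMSO was at 174, 196 and 219 CPM in MDA-MB-453, against 4.43, 1.14 and 4.65 CPM in MDA-MB-231. GATA3 in DMSO was at 788, 838 and 857 CPM in MDA-MB-453, against 4.13, 8.28 and 6.4 CPM in MDA-MB-231. The lines did not come near overlapping for either gene. The differences were 5.82 ± 0.22 for FOXA1 (56.6-fold, adjusted p = 8.71e-28) and 7.01 ± 0.14 for GATA3 (129-fold, adjusted p = 4.62e-39), and both held in all 31 alternative analyses. ESRRA was also called higher in MDA-MB-453, by 0.45 ± 0.17 (adjusted p = 0.0197), but its libraries overlapped between lines and the call was lost without either of MDA-MB-231 DMSO replicates 2 and 3 (0.33, adjusted p = 0.125; 0.32, adjusted p = 0.13) or either of MDA-MB-453 DMSO replicates 2 and 3 (0.4, adjusted p = 0.0687; 0.38, adjusted p = 0.0791).

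Treatment left FOXA1 close to its DMSO level in MDA-MB-453. Group means were 187 to 206 CPM, all ranges overlapped, and the abemaciclib difference was 0.07 ± 0.1 (95% interval -0.14 to 0.27, adjusted p = 0.649). In MDA-MB-231 FOXA1 means were 3.41 to 5.42 CPM from 4 to 24 counts a library. The abemaciclib interval there, -0.44 to 1.75, was wide.

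GATA3 rose with abemaciclib alone in MDA-MB-453. Abemaciclib libraries were at 960, 1170 and 1030 CPM, all above DMSO, a rise of 0.35 ± 0.08 (1.27-fold, adjusted p = 0.000552). With the combination GATA3 was at 869, 848 and 862 CPM. These values overlapped DMSO (0.07 ± 0.08, 95% interval -0.09 to 0.24, adjusted p = 0.508) and lay below all abemaciclib libraries. The direct comparison of combination with abemaciclib gave -0.27 ± 0.08 and narrowly missed the threshold (adjusted p = 0.0566), in a comparison where 2.46% of genes were called. It passed in 8 of 19 alternative analyses, with DESeq2 (adjusted p = 0.0252), without mitochondrial counts (adjusted p = 0.0379) and without abemaciclib replicate 1 (-0.34, adjusted p = 0.00628) among them. Fulvestrant libraries held 972, 999 and 857 CPM. The first and second lay above DMSO and replicate 3 was level with its highest library, and the difference of 0.19 ± 0.08 was not called (adjusted p = 0.253), except without fulvestrant replicate 3 (0.26, adjusted p = 0.0186).

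GATA3 in MDA-MB-231 stayed under 11 CPM. The combination libraries, at 10.6, 10.2 and 9.17 CPM, were all above the DMSO libraries, but the difference of 0.65 ± 0.35 was not called (95% interval -0.05 to 1.35, adjusted p = 0.147).

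**Figure D3:**
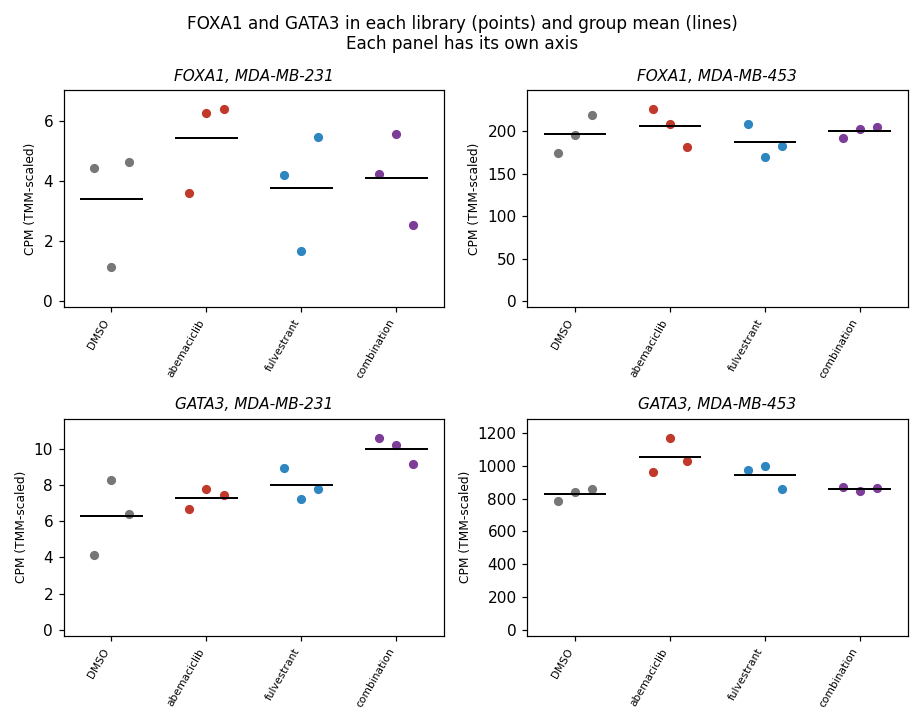
Levels of FOXA1 and GATA3 (y axis, CPM after TMM scaling, including 0 and different in each panel) by treatment in each line; points are libraries and lines the means of 3. In MDA-MB-453 the GATA3 abemaciclib points, 960 to 1170 CPM, lie above the DMSO points, while the FOXA1 points of the treatments overlap.

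Against a minimum change of 1.5-fold, GPER1 with abemaciclib in MDA-MB-231 was the only member still called under treatment. As given above, GPER1 had low counts and passed the filter there only through the abemaciclib and combination groups, where it was high. Fulvestrant alone called no member in either line. In MDA-MB-231 it called 0 of 11314 genes (0%) with edgeR, against 799 at an unadjusted p below 0.05, and DESeq2 also called 0, but edgeR called 205 without fulvestrant replicate 1. In MDA-MB-453 it called 156 genes (1.41%), a count that ran from 5 without fulvestrant replicate 2 to 786 without fulvestrant replicate 3. Adding fulvestrant to abemaciclib called 3 genes (0.0265%) in MDA-MB-231, and no member was among them or among the 273 called in MDA-MB-453.

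The partners and targets of these receptors were counted in lists, to be read against the calls over all genes. With abemaciclib 16.9% of genes rose and 16.9% fell for MDA-MB-231, while 16.6% rose and 19.4% fell for MDA-MB-453. With the combination 17% rose and 18.3% fell for MDA-MB-231, while 17.6% rose and 20% fell for MDA-MB-453. Receptor chaperones, which fold and hold steroid receptors, mostly fell in MDA-MB-231. Of 15, all tested, 10 fell and 1 rose with abemaciclib (median -0.51, against 0 over all genes, of which 16.9% fell), and 11 fell and 1 rose with the combination (median -0.43). FKBP5, FKBP4 and HSP90AA1 fell furthest among genes of at least 10 CPM: the immunophilin FKBP5 by -1.21 ± 0.18 (adjusted p = 1.1e-06), its relative FKBP4 by -1.19 ± 0.13 (adjusted p = 4.58e-10) and the inducible HSP90 gene HSP90AA1, from 4730 to 2120 CPM, by -1.17 ± 0.09 (adjusted p = 1.83e-14).

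In MDA-MB-453, 6 chaperones fell and 3 rose with abemaciclib (median -0.12). FKBP4 fell by 0.63 on the log2 scale (SE 0.09, adjusted p = 2.85e-07) and HSPA8 by 0.61 (SE 0.08), while PPID rose by 0.67 ± 0.18. With the combination 7 fell and 2 rose, and the co-chaperone PTGES3 fell by 0.71 (SE 0.09). With fulvestrant HSP90AA1 was called higher in MDA-MB-453 by 0.33 ± 0.08 (adjusted p = 0.0283), the only chaperone called. There 1.41% of all genes were called, a count that ran from 5 to 786 genes with single libraries left out. Against abemaciclib the combination had more DNAJB1 (0.39 ± 0.1) and 1 chaperone called lower, where 2.46% of all genes were called. The abemaciclib effect on HSP90AA1 differed between lines by 1.18 ± 0.13 (adjusted p = 3.68e-10), that on FKBP5 by 1.51 ± 0.15 (adjusted p = 6.24e-11), and 8 of 15 chaperones were called higher and 1 lower for this difference, against 7.72% and 13% of all genes.

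Genes that glucocorticoid receptor activity is known to raise were counted next. In MDA-MB-231, 4 of the 17 tested rose and 5 fell with abemaciclib (median -0.26), where 33.7% of all genes were called. DDIT4, an mTORC1 inhibitor, rose by 2.32 ± 0.3 (adjusted p = 3.55e-08) and the caveolar protein gene CAVIN2 by 1.9 ± 0.14 (adjusted p = 4.87e-14). FKBP5, also a chaperone, was among those that fell. With the combination 5 rose and 5 fell, and DDIT4 was 2.46 ± 0.29 higher.

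In MDA-MB-453, 8 of 17 rose and 2 fell with abemaciclib (median 1.07), and 10 rose and 2 fell with the combination (median 1.14). Over all genes 16.6% rose with abemaciclib and 17.6% with the combination. SGK1, a kinase of sodium transport, went from 3.07 to 17.4 CPM (2.48 ± 0.36, adjusted p = 2.56e-07), and ZBTB16, encoding a zinc finger repressor, from 20.7 to 51.8 CPM (1.32 ± 0.18, adjusted p = 4.17e-08). The metallothionein MT2A went the other way, from 1500 to 161 CPM (-3.22 ± 0.09, adjusted p = 1.47e-31), and stayed there with the combination (-3.06 ± 0.09). ZBTB16 was also called higher with fulvestrant alone (0.68 ± 0.18, adjusted p = 0.0395), where 1.41% of all genes were called. TSC22D3, the leucine zipper gene GILZ, was higher in the combination than with abemaciclib (531 against 371 CPM, 0.54 ± 0.09, adjusted p = 0.000125). For the difference of the abemaciclib effect between lines, 4 of 20 genes were called higher in MDA-MB-453 and 2 lower. Over all genes 7.72% were called higher and 13% lower for it. SGK1 differed by 3.56 ± 0.48 (adjusted p = 8.9e-08) and MT2A by -2.41. NR3C1 RNA, as given above, was lower in the first line and did not pass the test in the second.

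**Figure D4:**
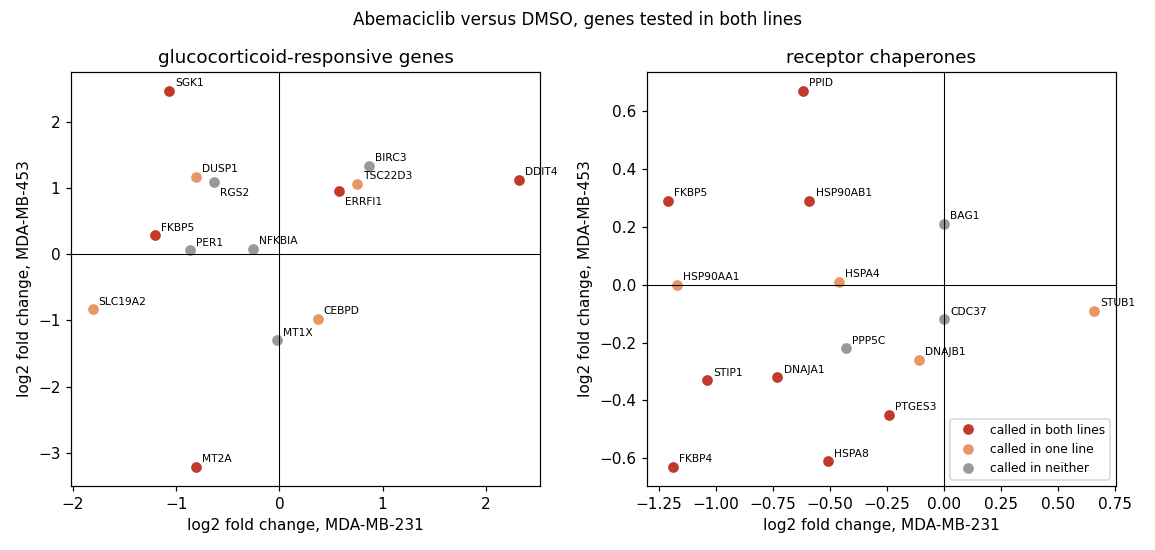
Log2 fold change with abemaciclib against DMSO in MDA-MB-231 (x axis) and MDA-MB-453 (y axis) for glucocorticoid-responsive genes (left) and receptor chaperones (right) tested in both lines; each point is a gene, coloured by whether its adjusted p was below 0.05 in both lines, in a single line or in neither. SGK1 (-1.07 and 2.48) and FKBP5 (-1.21 and 0.29) were among genes called in opposite directions, and FKBP4 (-1.19 and -0.63) fell in both.

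Coregulators of steroid receptors were all tested, and in MDA-MB-231 their calls were nearly all falls. With abemaciclib 9 of 25 fell and none rose in MDA-MB-231 (median -0.1), against 16.9% of all genes in each direction. Among those that fell were the ER coactivator PELP1 (-1.02 ± 0.2, adjusted p = 7.51e-05), the corepressor SAFB (-0.86 ± 0.16) and TBL1XR1 of the NCOR complex (-0.75 ± 0.14). In the combination 9 fell and 1 rose. In MDA-MB-453, 4 rose and 8 fell with the combination, where 37.6% of all genes were called. With abemaciclib 5 rose and 5 fell there (median 0.1, with 36% of all genes called). The enhancer methyltransferase KMT2C rose by 0.97 ± 0.13 (adjusted p = 6.67e-08) and NCOA4 by 0.73 ± 0.13, while the arginine methyltransferase PRMT1 fell by 0.58 on the log2 scale (SE 0.1). Between the combination and abemaciclib 2 of 25 were called higher in MDA-MB-453 and 1 lower, where 2.46% of all genes were called. The RNA helicases DDX5 (0.51 ± 0.08, adjusted p = 9.78e-05) and DDX17 (0.51 ± 0.1, adjusted p = 0.00181) were higher. The histone acetyltransferase CREBBP was lower (-0.57 ± 0.14, adjusted p = 0.0195). Between untreated lines MDA-MB-453 had 10 at a higher and 10 at a lower level (69.8% of all genes were called), with NRIP1, a corepressor that ER itself induces, higher by 3.1 ± 0.19 and NCOA2 by 2.03 ± 0.27. For the difference of the abemaciclib effect between lines, 7 of 25 were called higher in MDA-MB-453 and 0 lower. Over all genes these shares were 7.72% and 13%.

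More respiratory targets and coactivators of ESRRA fell than rose with abemaciclib and with the combination, in both lines. In MDA-MB-453, 1 of 20 tested rose and 9 fell with abemaciclib (median -0.32), against 16.6% and 19.4% of all genes, and 3 rose and 6 fell with the combination (median -0.28). NRF1, a regulator of mitochondrial genes, fell by 0.95 on the log2 scale (SE 0.34, adjusted p = 0.0248), the coactivator PPRC1 by 0.71 (SE 0.26) and the oxidase subunit COX5A by 0.54 (SE 0.13), and VEGFA rose with the combination by 0.76 ± 0.16. In MDA-MB-231, 4 of 19 rose and 6 fell with abemaciclib (median -0.25), against 16.9% of all genes in each direction, and 3 rose and 7 fell with the combination. Cytochrome c, CYCS, fell by 0.95 (SE 0.1, adjusted p = 2.49e-10) and the mitochondrial transcription factor TFAM by 0.81 (SE 0.1), while VEGFA rose by 0.83 ± 0.3. NRF1 fell by 1.79 (SE 0.31) with the combination. Untreated MDA-MB-453 had 7 of 20 higher and 6 lower, where 69.8% of all genes were called. CPT1A was higher by 2.05 ± 0.12 and VEGFA by 1.9 ± 0.23.

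Luminal transcription factors were mostly higher in MDA-MB-453, as FOXA1 and GATA3 were. Of 22 tested, 18 were higher and 1 lower in untreated MDA-MB-453 (median 5.21), against 34.3% and 35.6% of all genes. TFAP2B and EHF had 0 counts in MDA-MB-231 DMSO and 468 ± 13.3 and 224 ± 8.39 CPM (SD, n = 3) in MDA-MB-453, at least 1610-fold and 769-fold higher taking 3 counts over the group as the floor. With abemaciclib in MDA-MB-453, 6 of 21 rose and 3 fell (median -0.04), where 36% of all genes were called. CREB3L1 rose by 1.34 ± 0.18 and BHLHE40 by 0.78 ± 0.19, and FOXM1, a cell cycle factor, fell by 3.79 (SE 0.19, adjusted p = 6.17e-21), from 120 to 8.78 CPM. With the combination 6 rose and 6 fell. TRPS1, a GATA family repressor, was lower in the combination than with abemaciclib (-0.35 ± 0.09, adjusted p = 0.0229). In MDA-MB-231 2 of 15 rose and 2 fell with abemaciclib (median 0.26, with 33.7% of all genes called). CREB3L1 rose by 1.67 ± 0.26 and TFAP2C by 1.14 ± 0.29. The 2 that fell were FOXM1 (-0.75 ± 0.12) and FOXC1 (-0.63 ± 0.18, adjusted p = 0.00488). With the combination 3 rose and 2 fell in MDA-MB-231.

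Of other nuclear receptors, 4 of 18 rose and 1 fell with abemaciclib in MDA-MB-231, where 33.7% of all genes were called. The counts were 4 and 1 of 21 for MDA-MB-453, where 36% were called. The retinoic acid receptor RARA fell in MDA-MB-231 by 1.18 (SE 0.25, adjusted p = 0.000261), where PPARG rose by 0.8 ± 0.22 and the liver X receptor NR1H2 by 0.73 ± 0.22. In MDA-MB-453 the orphan receptor NR2F2 rose by 0.57 ± 0.1 and the shared dimer partner RXRA by 0.56 ± 0.11, and NR2F6 fell by 0.55 (SE 0.11). With the combination 2 rose and 3 fell in MDA-MB-231, and 4 rose and 1 fell in MDA-MB-453. Untreated MDA-MB-453 had 10 of 23 higher and 5 lower, where 69.8% of all genes were called. The thyroid hormone receptor THRB was higher by 4.12 ± 0.37 and NR2F6 by 2.43 ± 0.15.

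Enzymes that make or inactivate steroids were tested for 12 of 30 genes for MDA-MB-231 and 15 of 30 genes for MDA-MB-453. With abemaciclib 3 rose and 2 fell in the former (median 0.44, with 33.7% of all genes called), with the reductase SRD5A1 up by 0.54 ± 0.2 (adjusted p = 0.0361). In the latter 4 rose and 4 fell (median 0.23, with 36% of all genes called), with H6PD, which supplies cofactor to the cortisol-forming enzyme, up by 1.56 ± 0.25 (adjusted p = 1.68e-06), the sulphotransferase SULT1A1 up by 0.89 ± 0.16 and HSD17B10 down (-0.56 ± 0.11). With the combination 5 rose and 1 fell in MDA-MB-231, while 3 rose and 2 fell in MDA-MB-453. Untreated, HSD17B11 had 688 counts in MDA-MB-231 but 1 count in MDA-MB-453, and SULT1A1 had 1 and 292.

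The 14 markers of hormone receptor-positive lines summed to 317 to 341 CPM in MDA-MB-231 DMSO and 364 to 401 CPM in MDA-MB-453 DMSO, mostly from IGFBP4 in the first and CA12 in the second. GREB1, a direct ER target, had 3 and 5 counts in those groups, and PDZK1 and SERPINA6 had 0. Between untreated lines 6 of 9 tested were higher and 2 lower in MDA-MB-453 (median 3.62), against 34.3% and 35.6% of all genes. TFF3 and RET, among the higher, had 0 counts in MDA-MB-231 DMSO and 592 and 282 in MDA-MB-453 DMSO. With abemaciclib 2 of 5 tested rose in MDA-MB-231 (33.7% of all genes were called), IGFBP4 by 1.97 ± 0.09 (adjusted p = 2.17e-20) and the carbonic anhydrase CA12 by 0.62 ± 0.21. In MDA-MB-453, where 36% of all genes were called, 1 of 8 rose and 2 fell. TFF3 rose by 1.87 ± 0.13 (adjusted p = 7.36e-17). STC2 fell by 0.99 on the log2 scale (SE 0.33, adjusted p = 0.0164), and IGFBP4, the opposite of its direction in MDA-MB-231, fell by 3.18 (SE 0.62, adjusted p = 5.66e-05), from 78 to 8 summed counts. With the combination 1 rose in MDA-MB-231, while 1 rose and 1 fell in MDA-MB-453. Against 16.9% (MDA-MB-231) and 16.6% (MDA-MB-453) of all genes called higher, luminal epithelial markers rose with abemaciclib for 3 of 6 tested in MDA-MB-231, KRT19 by 1.41 ± 0.12 among them, with 1 lower, and for 5 of 11 in MDA-MB-453, where PIP went from 44.6 to 435 CPM (3.28 ± 0.11, adjusted p = 1.68e-28) and SCGB2A2 from 4.05 to 73.4 CPM (4.17 ± 0.25, adjusted p = 1.08e-18). Mesenchymal markers rose for 4 of 9 in MDA-MB-231, FN1 by 2.85 ± 0.29 (adjusted p = 1.2e-10), and none of the 10 passed the filter in MDA-MB-453.

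The genes most like each member over the 12 libraries of a line were listed by Pearson r, as a description over libraries that share treatments. For ESRRA these were MYL9 (0.955), MRPL30 (0.928) and KCNAB2 (0.907) in MDA-MB-231 and the small nucleolar RNA host gene GAS5 (0.985), PRR15L (0.976) and MAGED2 (0.976) in MDA-MB-453. For NR3C1 they were SCRN1 (0.918), PARPBP (0.915) and SMTN (0.909) in MDA-MB-231 and ENAH (0.929), SRRM1 (0.916) and THRAP3 (0.913) in MDA-MB-453. In MDA-MB-453 GATA3 had its highest likeness to SNHG5 (0.963), and PPP2R5E (0.934) was also listed. FOXA1 had weaker likenesses, to NDUFAF5 (0.837), PCBD1 (0.829) and GEMIN8 (0.796). Among the members themselves, GPER1 and ESRRA had an r of 0.77 and GPER1 and NR3C1 of -0.814 over the 12 MDA-MB-231 libraries, and NR3C1 and GATA3 of 0.494 over those of MDA-MB-453.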

How the data were processed

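Gene expression was measured with QuantSeq forward libraries (3′ RNA-seq). The authors trimmed the reads, aligned them with STAR to hg38 and counted them per gene with featureCounts on GENCODE. The deposited values are raw counts, whole numbers without normalisation. Strand setting, handling of multimapping or duplicate reads and use of molecular identifiers are not given in the sources used here, and without identifiers intervals and floors cover counting error only. An unnamed row with 0 counts was left out. The 9 members and the 10 gene lists were chosen with earlier results of these data known.

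Counts were tested with edgeR 4.0.16 in R 4.3.3 (filterByExpr, TMM, glmQLFit and glmQLFTest, two-sided), with the 12 libraries of a line in each fit and all 24 for comparisons of lines. P-values were adjusted by Benjamini-Hochberg over all genes tested, and a gene was called below 0.05. The study's own tool, DESeq2 (here 1.42.0), was an alternative, with other normalisations, filters, a replicate block, single libraries left out and a minimum change of 1.5-fold. Levels are CPM on TMM-scaled totals over 24 libraries and are compared within a gene only. Named list genes were the called genes with the largest change averaging at least 10 CPM, at most 3 a list for abemaciclib, 2 between lines and 1 otherwise. The differences between lines for SGK1, FKBP5, HSP90AA1 and MT2A were added after their values were seen. So were the levels of GREB1, PDZK1 and SERPINA6, and DDX5 and DDX17. The changes of IGFBP4 in MDA-MB-453 and of FOXC1 in MDA-MB-231 were also added after their values were seen. A few genes that the rule names are not reported here. The fits were tested on simulated data. Coordinates and exon overlaps come from GENCODE release 44, and promoters from RefSeq, where all 9 members matched. The number of 3 replicates a group, with totals of 2873558 to 4158762 counts, sets the precision.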

Additional observations from a re-analysis of the deposited data

Results flagged for a closer look

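The abemaciclib effect on NR3C1 differed between the lines by 0.63 ± 0.2 on the log2 scale (edgeR quasi-likelihood interaction test, adjusted p = 0.0168), from changes of -0.57 (MDA-MB-231) and 0.06 (MDA-MB-453). All 3 abemaciclib libraries of MDA-MB-231 lay below its DMSO libraries, and those of MDA-MB-453 overlapped. The call held in 24 of 31 alternatives and in 18 of the 24 that left out a library. It was lost without MDA-MB-231 abemaciclib replicate 1 (0.41, adjusted p = 0.169), DMSO replicate 1 (0.53) or DMSO replicate 3 (0.55), and without MDA-MB-453 abemaciclib replicate 2 (0.53) or 3 (0.54) or DMSO replicate 3 (0.55). The lines were cultured in different media, which cannot be told apart from the lines.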

How the results depend on the processing

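Of 1129 recomputed member results, 1085 kept their side of the threshold, 27 lost a call, 17 gained one and 0 calls reversed direction. Some differences that were not called changed sign. In MDA-MB-231, NR3C2 with abemaciclib ran from -0.6 to 0.68 and GPER1 with fulvestrant from -0.53 to 0.8. Of 144 levels recomputed with other totals, 6 moved by over 1 SD.

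The replicate numbers are shared across groups, but same-numbered libraries did not deviate together: 0 of 18 correlations in each line exceeded 0.1 (MDA-MB-231 -0.092 to 0.045, MDA-MB-453 -0.065 to 0.044). With the replicate number as a block, fulvestrant in MDA-MB-453 called 111 genes and no member call changed.

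A minimum change of 1.5-fold left 888 genes and 1 member called for abemaciclib in MDA-MB-231, 1021 and 0 for the combination, 1117 and 0 for abemaciclib in MDA-MB-453, 1227 and 0 for the combination, and 884 and 0 for the difference of the abemaciclib effect between lines. It left 0 genes for combination against abemaciclib in MDA-MB-231, against 8 in MDA-MB-453, and 0 for fulvestrant in MDA-MB-453. This test asks for a larger change by construction.

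Combination against abemaciclib in MDA-MB-231 called 3 genes, and called 55 with DESeq2, 5 with DESeq2 size factors, 9 without mitochondrial counts, 49 with no filter, 30 with only the groups compared, and 0 to 96 with single libraries left out. Fulvestrant called 14 genes with no filter and 0 to 205 without single libraries in MDA-MB-231. In MDA-MB-453 it called 294 with DESeq2, 269 with no filter and 5 to 786 without single libraries, with 0 to 2 members. Combination against abemaciclib in MDA-MB-453 called 83 to 518 genes and 0 to 1 member without single libraries, and 1 member (GATA3) with DESeq2, DESeq2 size factors, no mitochondrial counts, no filter or only the groups compared. With single libraries left out, members called for the combination in MDA-MB-231 were 1 to 3, and for the difference of the abemaciclib effect 0 to 1. The cause was not tested. Low counts left abemaciclib intervals over 2 log2 units wide for GPER1, NR3C2 and FOXA1 in MDA-MB-231.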
